A study of Mus musculus with 2 samples.

Results

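GATA3 occupancy was described at the loci of 3 genes that steer the fate of effector CD4+ T cells: Maf, Bcl6 and Prdm1. The loci were fixed windows of the mm9 assembly. The Maf window covered 200 kb of chromosome 8 from 118100000 to 118300000, the Bcl6 window 100 kb of chromosome 16 from 23930000 to 24030000, and the Prdm1 window 180 kb of chromosome 10 from 44120000 to 44300000. They held 45 of the 64562 GATA3 sites found in the genome, with 16 at Maf, 9 at Bcl6 and 20 at Prdm1. The sites are numbered along each window in the order of their position.

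Both chromatin immunoprecipitation libraries came from C57BL/6 mice and used an antibody to GATA3. The cells were CD4+ T cells, isolated as naive CD25-negative, CD62L-positive cells. For the library labelled with TGF-β and IL-4 the culture doses were 10 ng/ml IL-4 and 2 ng/ml TGF-β1. Anti-CD3 and anti-CD28 were given beside them at 1 µg/ml each. The other library has no treatment named. Because the protocol describes TGF-β1 with and without IL-4, the labels do not say whether these cells received TGF-β1 alone or no stimulation. In unlabelled pairs of reads, RPM or shares, the library with no treatment named comes first. The study asked how GATA3 binding differs after these stimulations. With 1 library per condition, differences could not be checked against replicates and carry no p-value. Every interval between the libraries below covers counting error only. Input DNA was not analysed here.

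GATA3 is the zinc-finger factor that directs T helper 2 differentiation and binds DNA at short sequences with the core GATA. Maf encodes c-Maf, a leucine-zipper factor that activates Il4 in T helper 2 cells and also acts on Il10 and Il21. Bcl6 encodes a transcriptional repressor that is required for follicular helper T cells, and Prdm1 encodes Blimp-1, a repressor that promotes terminal effector differentiation and opposes Bcl6. The balance of the latter pair is a textbook switch between the follicular helper and other effector fates.

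Positions are in mm9, and no gene annotation or sequence of mm9 was used, so sites are not placed in promoters, exons or introns. In the RefSeq table of the later build GRCm38.p6 the neighbouring protein-coding genes are Wwox and Dynlrb2 for Maf, Rtp2 and Lpp for Bcl6, and Atg5 and Prep for Prdm1, and parts of neighbouring or non-coding genes may lie in the windows. The RefSeq promoters of that build matched 2 of the 3 genes, with 2 start sites for Bcl6 and 1 for Prdm1. In the 250 bases before these starts neither strand held the GATA core with its usual flanks, searched as AGATAA and as AGATAG and, with T in front, as TGATAA and as TGATAG. Among all 32851 promoters of that table, 26.5% held at least 1 such motif. This says only that these letters are not in those bases.

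Depth was 22963959 reads of 25 bases with no treatment named and 15561681 with TGF-β plus IL-4 on the chromosomes used. Values are therefore given as RPM, reads per 1000000 reads of the library, and each ratio sets RPM with TGF-β plus IL-4 over RPM of the other library. A single read was worth 0.0435 RPM with no treatment named and 0.0643 RPM with TGF-β plus IL-4. A site is a peak of read coverage over its own surroundings, called in each library at equal depth and merged where the calls overlapped. Over the genome, sites called in both libraries had a median ratio of 1.34 and 76.8% of them had a ratio over 1.

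The windows held more GATA3 sites per length than the covered genome on average. There were 8.0 sites per 100 kb at Maf, 9.0 at Bcl6 and 11.1 at Prdm1, against 2.83 per 100 kb of covered genome. Read density outside the sites was also above the genome's 0.439 RPM per kb, a rate that includes the genome's reads in sites. It was 0.609 RPM per kb at Maf in both libraries. At Bcl6 it was 0.647 RPM per kb with no treatment named and 0.675 with TGF-β plus IL-4, and at Prdm1 0.662 and 0.722. The whole windows thus carry somewhat more reads than an average stretch of genome, apart from their sites.

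Sites called in both libraries held more RPM with TGF-β plus IL-4 at all 3 loci under scaling by total reads. The 7 such sites at Maf held 275 reads (11.98 RPM) with no treatment named and 248 reads (15.9 RPM) with TGF-β plus IL-4, a ratio of 1.33 (exact 95% interval 1.12 to 1.59). The 4 at Bcl6 held 478 reads (20.8 RPM) and 376 reads (24.2 RPM), a ratio of 1.16 (1.01 to 1.33). The 9 at Prdm1 held 410 reads (17.9 RPM) and 447 reads (28.7 RPM), a ratio of 1.61 (1.404 to 1.84). The Maf value lies close to 1.34, the median of the genome's sites called in both. This set was chosen after the data were seen. The Prdm1 ratio was 1.39 times the Bcl6 ratio (exact conditional 95% interval 1.14 to 1.68). Single sites weigh on this contrast, since Prdm1 site 4 held 64 and 133 of these reads and Bcl6 site 2 held 82 and 22. The contrast without these sites was not computed, and no difference between the loci as wholes is drawn from it. The other pairs of loci had intervals that held 1, with 1.15 (0.916 to 1.43) for Maf over Bcl6 and 1.21 (0.967 to 1.51) for Prdm1 over Maf. None of these intervals is adjusted for the 3 pairs, and they say nothing of the spread between cultures.

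Over all sites the sums include those called in 1 library alone, and such a call favours that library. At Maf 8 sites were called with TGF-β plus IL-4 alone and 1 with no treatment named alone, at Bcl6 3 and 2, and at Prdm1 7 and 4. Together these were 18 and 7 of the 45 sites, with 20 called in both. Over the genome 28185 of 64562 sites were called with TGF-β plus IL-4 alone, 10719 with no treatment named alone and 25658 in both. The excess of calls with TGF-β plus IL-4 alone is thus not particular to these windows. All Maf sites held 405 and 431 reads (17.6 and 27.7 RPM), a ratio of 1.57 (1.37 to 1.80). All Prdm1 sites held 615 and 649 reads (26.8 and 41.7 RPM), a ratio of 1.56 (1.39 to 1.74), and all Bcl6 sites 536 and 434 reads (23.3 and 27.9 RPM), a ratio of 1.19 (1.05 to 1.36). The Maf ratio thus moved most with the choice of sites, and no contrast between loci is drawn from these sums.

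The scale matters for the direction. With the libraries scaled to a median of 1 over all sites called in both, the ratios over the loci's own sites called in both became 0.992 at Maf (0.832 to 1.18), 0.865 at Bcl6 (0.754 to 0.993) and 1.199 at Prdm1 (1.05 to 1.37). On that scale Bcl6 turned from higher to lower and Maf lay at 1. Within a window the comparison is free of scaling. The ratio in sites called in both was 1.33 times that outside all sites at Maf (1.11 to 1.60) and 1.48 times at Prdm1 (1.27 to 1.71). At Bcl6 it was 1.11 times, with an interval that held 1 (0.947 to 1.30). Over the genome, by total reads, sites called in both had a median ratio of 1.34 and the reads outside all sites a ratio of 0.956. A higher ratio in sites than outside them is thus not particular to these windows.

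Over the windows as a whole, most reads lay outside sites and the ratios were close to 1. The Maf window held 3154 and 2293 reads (137 and 147 RPM), a ratio of 1.07 (1.02 to 1.13). The Bcl6 window held 1989 and 1462 reads (86.6 and 93.9 RPM), a ratio of 1.08 (1.01 to 1.16). The Prdm1 window held 3287 and 2622 reads (143 and 168 RPM), a ratio of 1.18 (1.12 to 1.24). With the scaling to the median of shared sites all 3 window ratios fell below 1, at 0.80, 0.809 and 0.877. Sites filled 1.72% of the Maf window and held 12.8% of its reads with no treatment named (Wilson 95% interval 11.7% to 14.1%) and 18.8% with TGF-β plus IL-4 (17.2% to 20.4%). At Prdm1 they filled 2.38% and held 18.7% (17.4% to 20.1%) and 24.8% (23.1% to 26.4%). At Bcl6 they filled 2.15% and held 26.9% (25.04% to 28.9%) and 29.7% (27.4% to 32.1%). These shares are partly set by which library called the sites. Over the genome all sites held 8.48% of the reads with no treatment named and 12.5% with TGF-β plus IL-4. A higher share with TGF-β plus IL-4 is thus not particular to these windows. Sites called in both alone held 8.72% (7.78% to 9.75%) and 10.8% (9.61% to 12.2%) of the reads at Maf, 24.0% (22.2% to 26.0%) and 25.7% (23.5% to 28.0%) at Bcl6, and 12.5% (11.4% to 13.6%) and 17.0% (15.7% to 18.5%) at Prdm1.

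**Figure D1:**
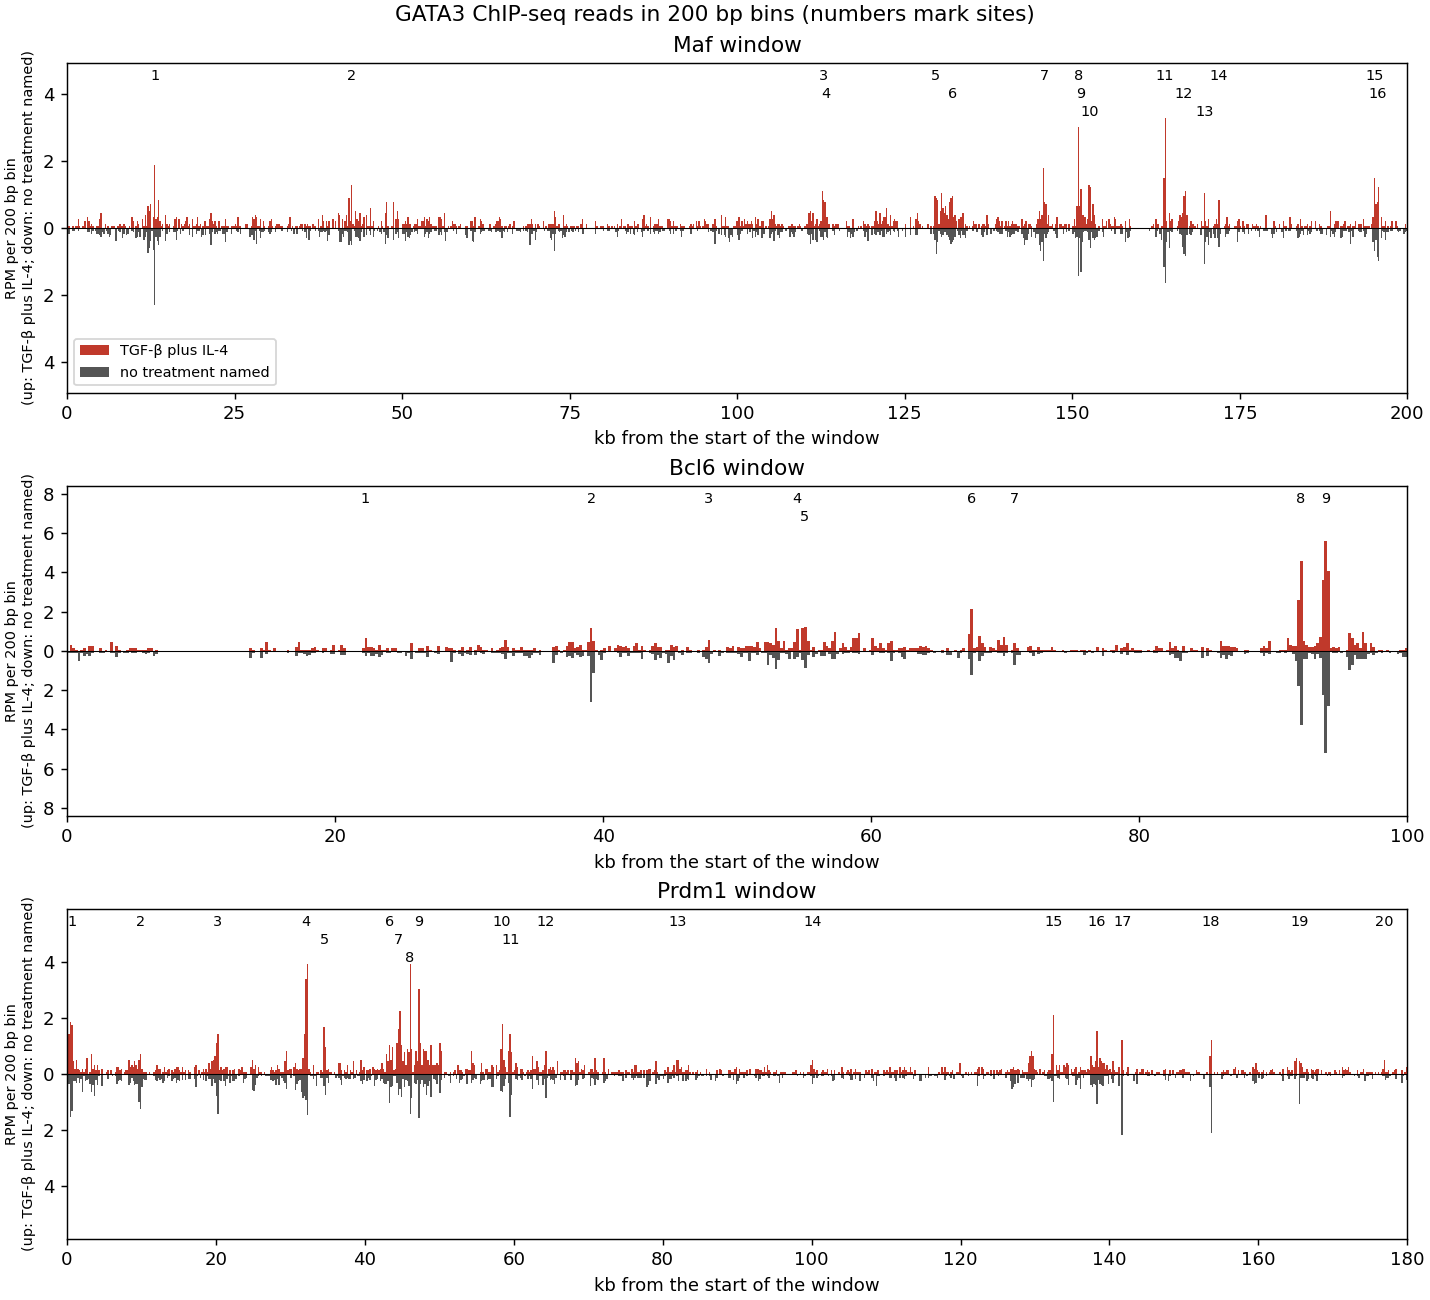
RPM in bins of 200 bp along the Maf, Bcl6 and Prdm1 windows, plotted against the distance in kb from the window's start, with the TGF-β plus IL-4 library upwards and the library with no treatment named downwards; numbers mark the sites. Bcl6 is led by the pair of sites 8 and 9 in both libraries, with at most 5.59 RPM in a bin, while Maf and Prdm1 spread their reads over many sites of at most 3.92 RPM in a bin.

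At Maf the sites gathered in the right part of the window. Sites 3 to 16 lay between 112.81 and 195.59 kb from its start, and a stretch of 70.2 kb between sites 2 and 3 held none. In that stretch read density was 0.57 RPM per kb with no treatment named and 0.564 with TGF-β plus IL-4, and no bin of 200 bp exceeded 0.771 RPM. Of the 16 sites, 7 were called in both libraries, 8 with TGF-β plus IL-4 alone and 1 with no treatment named alone. Calls with TGF-β plus IL-4 alone also outnumbered those with no treatment named alone over the genome. The libraries ranked the sites differently. The Spearman coefficient over the 16 sites was 0.788, a description over points that share their library and its depth.

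The site with the most reads at Maf with no treatment named was site 1, which stood alone on the left and was not the leading one with TGF-β plus IL-4. Site 1, from 118112931 to 118113220, held 65 reads (2.83 RPM) with no treatment named and 33 reads (2.12 RPM) with TGF-β plus IL-4. Its ratio was 0.749 with an interval of 0.477 to 1.16, which held 1 by total reads. With the scaling to shared sites it was 0.558 (0.356 to 0.862), an interval below 1 that did not reach the size rule given below. It ranked first of the 16 with no treatment named and was the 4th with TGF-β plus IL-4. Its highest bin of 200 bp held 53 and 29 reads.

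Site 11, from 118263671 to 118264010, led with TGF-β plus IL-4. It held 64 reads (2.79 RPM) and 70 reads (4.50 RPM), a ratio of 1.61 (1.13 to 2.30). It was the strongest Maf site over both libraries and lay at percentile 90.2 of all sites of the genome by mean RPM. Its neighbour site 13, from 118269691 to 118269850, went the other way in value, with 29 reads (1.26 RPM) and 16 reads (1.03 RPM), a ratio of 0.814 (0.413 to 1.55).

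A cluster of 4 sites within 7.12 kb, from 118245581 to 118252700, held more reads in total than site 11 and was higher with TGF-β plus IL-4. Sites 7 to 10 together had 114 reads (4.96 RPM) with no treatment named and 150 reads (9.64 RPM) with TGF-β plus IL-4, a ratio of 1.94 (1.51 to 2.50). Site 7, the widest of the locus at 500 bp, had 31 and 51 reads (1.35 and 3.28 RPM), a ratio of 2.43 (1.52 to 3.93). Site 8 had 33 and 52 reads (1.44 and 3.34 RPM), a ratio of 2.33 (1.47 to 3.71), and site 10 had 21 and 29 reads (0.914 and 1.86 RPM), a ratio of 2.04 (1.12 to 3.76). Site 9, between sites 8 and 10, did not share this. It had 29 and 18 reads (1.26 and 1.16 RPM), a ratio of 0.916 (0.479 to 1.71), and is named here because of its position, after its values were seen.

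The remaining Maf sites past the size rule were weak. By this rule a site is higher when its ratio reaches 2, and lower when it reaches 0.5 or less, provided that the exact 95% interval leaves out 1. Site 2, from 118142381 to 118142520, had 13 and 20 reads (0.566 and 1.29 RPM), a ratio of 2.27 (1.07 to 4.97). Site 3, from 118212741 to 118212880, had 12 and 23 reads (0.523 and 1.48 RPM), a ratio of 2.83 (1.35 to 6.24). Site 15, from 118295051 to 118295270, had 17 and 28 reads (0.74 and 1.80 RPM), a ratio of 2.43 (1.28 to 4.73), and its neighbour site 16 had 39 and 25 reads (1.70 and 1.61 RPM), a ratio of 0.946 (0.549 to 1.60). Sites 4 and 6 also passed the rule with 5 and 11 reads each. In all, 8 of the 16 Maf sites were higher and 0 lower, beside 25.1% higher and 3.86% lower among all sites of the genome. Of these 8, 6 were called with TGF-β plus IL-4 alone, a choice that by itself favours high ratios. With the scaling to shared sites only site 3 stayed past the rule, at 2.11 (1.01 to 4.65).

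Bcl6 was organised differently, with most of its signal at 1 pair of strong sites near the right end of the window. Site 9, from 24023591 to 24024190, was the strongest site of the 3 loci and stood at rank 779 of the 64562 sites of the genome by mean RPM. It held 236 reads (10.3 RPM) with no treatment named and 207 reads (13.3 RPM) with TGF-β plus IL-4. Its ratio was 1.29 (1.07 to 1.57) by total reads and 0.965 with the scaling to shared sites, so its direction depends on the scale. Site 8, from 24021891 to 24022190 and 1400 bp away, held 126 reads (5.49 RPM) and 107 reads (6.88 RPM), a ratio of 1.25 (0.959 to 1.63), or 0.934 with that scaling. Both sites were the first and second of the locus in either library. Together they had a ratio of 1.28 (1.10 to 1.49), close to the genome's median of 1.34 for sites called in both.

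The third Bcl6 site by mean RPM moved against the trend of the genome. Site 2, from 23969011 to 23969290, held 82 reads (3.57 RPM) with no treatment named and 22 reads (1.41 RPM) with TGF-β plus IL-4. Its ratio of 0.396 (0.235 to 0.64) passed the rule as lower under each of the 3 scalings, at 0.295 (0.175 to 0.477) with the scaling to shared sites. It was called in both libraries. Among the 25658 sites of the genome called in both, 1.25% were lower by the rule. Its summit coverage was 61 fragments against 18, all of its reads with no treatment named had the top mapping quality, and its summit moved by 20 bp between the libraries.

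The other Bcl6 sites were of middling or low strength. Site 6, from 23997331 to 23997590, held 34 and 40 reads (1.48 and 2.57 RPM), a ratio of 1.74 (1.07 to 2.83) that stayed under the rule. Site 5 held 25 and 25 reads (1.09 and 1.61 RPM), a ratio of 1.48 (0.813 to 2.68), and site 3 held 16 and 9 reads (0.697 and 0.578 RPM), a ratio of 0.83 (0.323 to 1.99). Site 4, from 23984411 to 23984520, was the only Bcl6 site past the rule as higher, with 4 and 15 reads (0.174 and 0.964 RPM), a ratio of 5.53 (1.76 to 22.9). Its ratio became 13.3 when the background within 10 kb was subtracted, so its size is poorly set. Sites 1 and 7 had 10 and 12 reads over both libraries, and their intervals held 1. The count at Bcl6 was thus 1 higher and 1 lower of 9, beside 25.1% higher and 3.86% lower among all sites of the genome. The 3 Bcl6 sites of highest mean RPM held 82.8% of the reads in its sites with no treatment named. With TGF-β plus IL-4 they held 77.4%. The shares of the 3 such sites were 40% and 36.0% at Maf, with 16 sites, and 25.2% and 38.1% at Prdm1, with 20. With fewer sites, 3 of them hold a larger share even under an even spread, so these shares are not directly comparable. Without sites 8 and 9 the other 7 Bcl6 sites gave a ratio of 1.02 (0.80 to 1.29), and without site 2 the other 8 gave 1.34 (1.17 to 1.53).

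Prdm1 had the most sites and showed both directions within 1 window. Of its 20 sites, 9 were called in both libraries, 7 with TGF-β plus IL-4 alone and 4 with no treatment named alone. Such an excess with TGF-β plus IL-4 alone was also found over the genome. By the rule 8 were higher and 2 lower, beside 25.1% and 3.86% of all sites of the genome. Of the 9 called in both, 3 were higher and 0 lower, beside 13.2% and 1.25% of such sites in the genome. The 2 libraries ranked the sites less alike than at the other loci in value, with a Spearman coefficient of 0.589 over the 20 sites, against 0.854 over the 9 at Bcl6. The leading bin of 200 bp also differed, with 50 and 19 reads at site 17 as the highest with no treatment named and 34 and 61 reads at site 4 as the highest with TGF-β plus IL-4.

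Site 4, from 44151841 to 44152360, was the strongest Prdm1 site, and of the 45 ratios its interval had the highest lower bound. It held 64 reads (2.79 RPM) with no treatment named and 133 reads (8.55 RPM) with TGF-β plus IL-4, a ratio of 3.07 (2.26 to 4.20). The ratio was 2.29 (1.68 to 3.13) with the scaling to shared sites, still past the rule. The site was called in both libraries and ranked first in each. Its summit coverage was 31 fragments against 65.

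A cluster of 4 sites further on, from 44163221 to 44167410, was higher as well. Sites 6 to 9 together held 112 reads (4.88 RPM) and 172 reads (11.1 RPM), a ratio of 2.27 (1.78 to 2.90). Site 7 had 24 and 49 reads (1.05 and 3.15 RPM), a ratio of 3.01 (1.81 to 5.13) that also passed the rule under the scaling to shared sites, at 2.25 (1.35 to 3.83). Site 8, from 44165961 to 44166110, had 37 and 64 reads (1.61 and 4.11 RPM), a ratio of 2.55 (1.68 to 3.94). Site 9 had 36 and 48 reads (1.57 and 3.08 RPM), a ratio of 1.97 (1.25 to 3.12), just short of the rule. Site 6 was the exception of the cluster, with 15 and 11 reads and an interval that held 1.

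Sites 10 and 15 were also higher, with fewer reads. Site 10, from 44178311 to 44178570, had 23 and 39 reads (1.00 and 2.51 RPM), a ratio of 2.50 (1.46 to 4.39), and site 15, from 44252371 to 44252570, had 25 and 38 reads (1.09 and 2.44 RPM), a ratio of 2.24 (1.32 to 3.88). Sites 5, 13 and 20 completed the 8, with 17 and 27, 2 and 9, and 3 and 9 reads. Sites 13 and 20 rest on so few reads that their intervals ran from 1.37 to 63.2 and from 1.10 to 25.4. The ratio of site 13 was 6.64, but 23.6 with the background within 10 kb subtracted and 2.95 with reads moved by 100 bp. At site 20 the share of reads with the top mapping quality was 66.7% in either library, against 87.8% and 88.3% in the whole libraries. The site was not called again from reads of the top mapping quality alone.

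The 2 Prdm1 sites lower by the rule were sites 2 and 19, at 9.855 and 165.53 kb from the window's start. Sites 1 and 20, nearer to its ends, had ratios of 1.37 and 4.43. Site 2, from 44129701 to 44130010, held 51 reads (2.22 RPM) with no treatment named and 15 reads (0.964 RPM) with TGF-β plus IL-4, a ratio of 0.434 (0.227 to 0.784). Site 19, from 44285451 to 44285610, held 25 and 7 reads (1.09 and 0.45 RPM), a ratio of 0.413 (0.151 to 0.983), and passed the rule only narrowly. With scaling by the reads outside sites it no longer passed, which left 1 lower Prdm1 site. Both were called with no treatment named alone, a choice that favours low ratios. Site 17, from 44261631 to 44261800, had 48 and 19 reads (2.09 and 1.22 RPM) and a ratio of 0.584 (0.324 to 1.01), and became lower by the rule with the scaling to shared sites, at 0.435 (0.242 to 0.755). It is named for that change, after its values were seen. Site 18, from 44273521 to 44273790, had 56 and 29 reads (2.44 and 1.86 RPM), a ratio of 0.764 (0.47 to 1.22), and was second of the 20 with no treatment named but 10th with TGF-β plus IL-4.

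The remaining Prdm1 sites of high RPM did not differ beyond counting error. Site 1, from 44120481 to 44120790, held 54 and 50 reads (2.35 and 3.21 RPM), a ratio of 1.37 (0.911 to 2.05). Site 3, from 44140091 to 44140310, held 45 and 35 reads (1.96 and 2.25 RPM), a ratio of 1.15 (0.716 to 1.83), which fell below 1 under the scaling to shared sites. Neither interval left out 1. The centre of site 1 lies 0.635 kb from the window's start, so signal to its left is outside the region described.

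**Figure D2:**
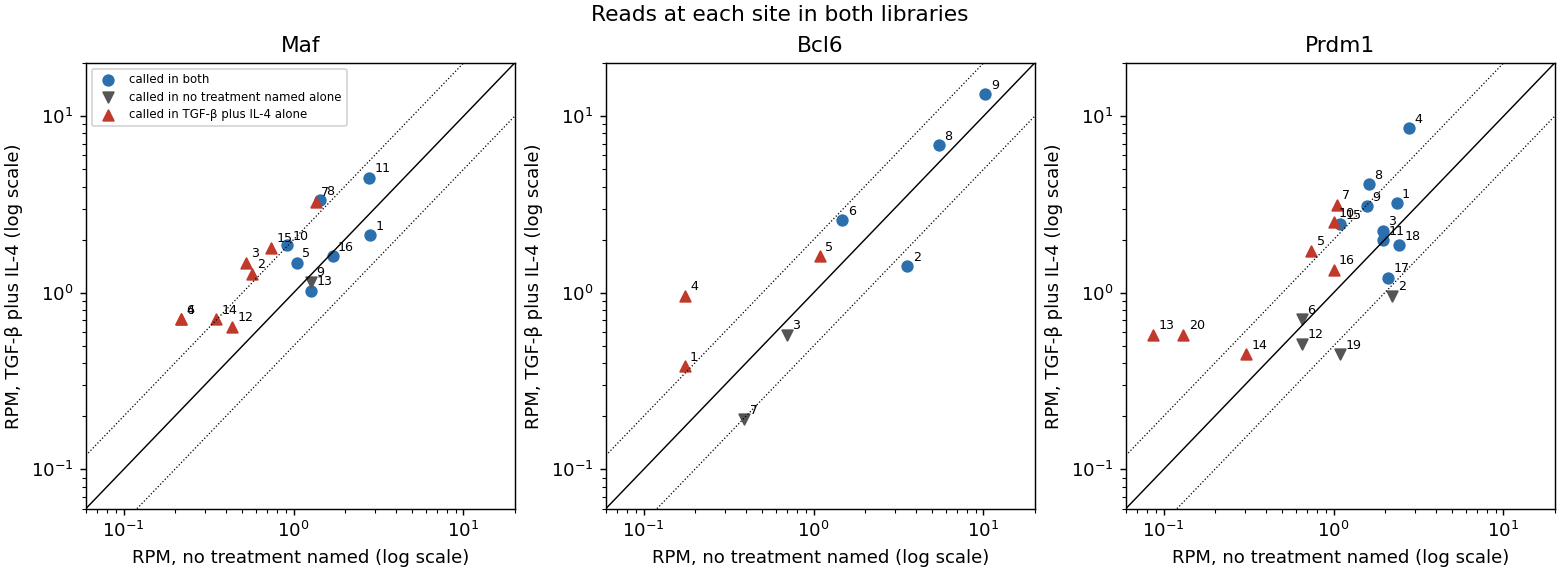
RPM with no treatment named (horizontal, log scale) against RPM with TGF-β plus IL-4 (vertical, log scale) for every site, by the library in which it was called; the solid line marks equality and the dotted lines a ratio of 2 and of 0.5. Bcl6 sites 8 and 9 lie just above equality at the upper right, Prdm1 site 4 lies above the upper dotted line, and Bcl6 site 2 lies below the lower one.

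Over the 3 loci 33 of 45 sites (73.3%) had a ratio over 1, beside 74.6% of all sites of the genome. By the rule 17 of 45 (37.8%) were higher and 3 (6.67%) lower, beside 25.1% and 3.86% in the genome. Since the calls themselves favour the library they were made in, the 20 sites called in both are a fairer set. Of these 5 (25%) were higher and 1 (5%) lower, beside 13.2% and 1.25% of the genome's sites called in both. The 5 were Maf sites 8 and 10 and Prdm1 sites 4, 8 and 15, and the lower one was Bcl6 site 2. The median ratio of the 20 was 1.33, beside 1.34 in the genome. No difference from the genome is drawn from counts this small.

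With the scaling to shared sites 5 of the 45 sites stayed higher and 4 were lower, beside 11.5% higher and 8.7% lower among all sites of the genome on that scale. The higher ones were Maf site 3, Bcl6 site 4 and Prdm1 sites 4, 7 and 13. The lower ones were Bcl6 site 2 and Prdm1 sites 2, 17 and 19. Prdm1 site 4 was the only one of the 5 called in both libraries, and Bcl6 site 2 and Prdm1 site 17 the only ones of the 4.

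**Figure D3:**
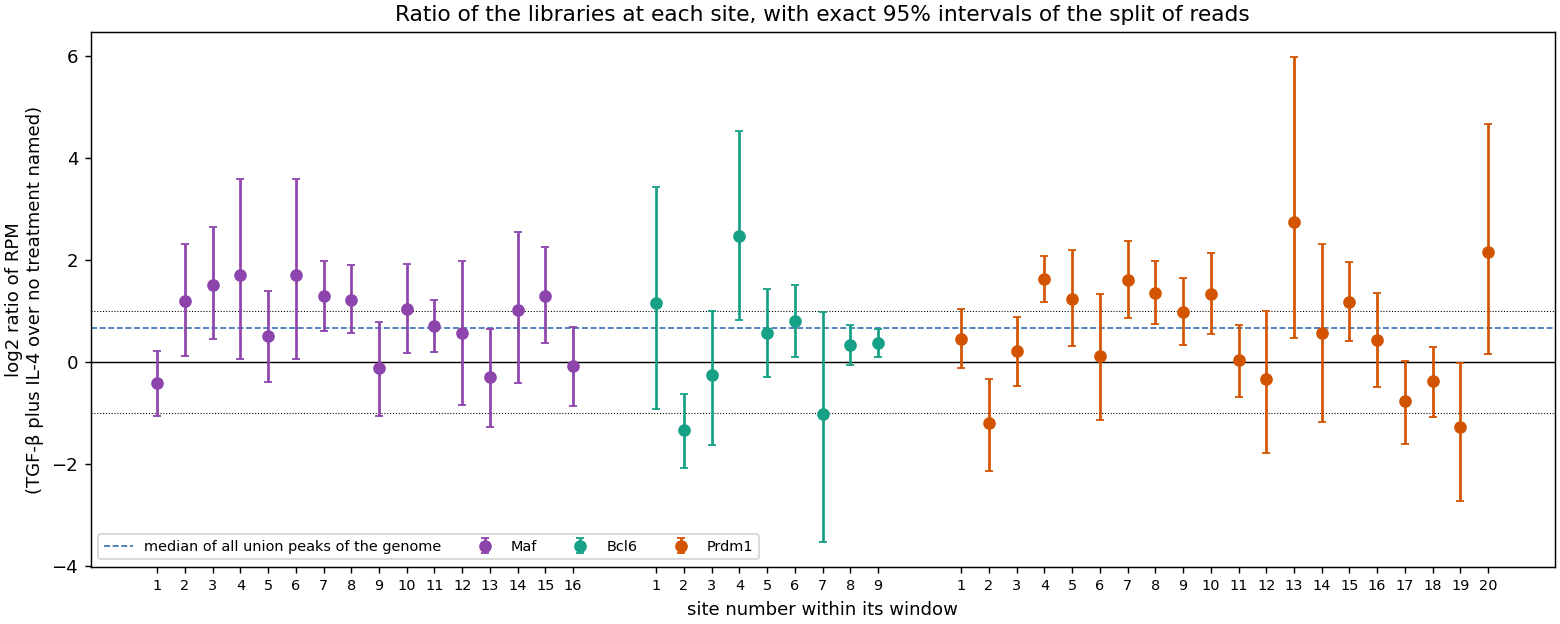
Log2 ratio of RPM, with TGF-β plus IL-4 in the numerator, at each of the 45 sites in order of position, with exact 95% intervals of the split of reads; dotted lines mark ratios of 2 and 0.5 and the dashed line the median of all sites of the genome. Maf sites lie mostly above 0 and Bcl6 sites scatter around it. Prdm1 lies above the upper dotted line at sites 4, 5, 7, 8, 10, 13, 15 and 20. It lies below 0 at sites 2, 12, 17, 18 and 19.

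Close neighbours did not always carry the same ratio. There were 5 pairs of sites at most 1 kb apart, a limit chosen after the positions were seen, and their comparison does not depend on scaling. At Maf, site 8 had a ratio 2.54 times that of site 9 (exact conditional 95% interval 1.15 to 5.66), although they lay 150 bp apart. Maf site 15 had 2.57 times the ratio of site 16 (1.09 to 6.08) across 180 bp. At Prdm1, site 10 had 2.46 times the ratio of site 11 (1.17 to 5.20) across 900 bp. The other 2 pairs, Maf sites 3 and 4 and Bcl6 sites 4 and 5, gave 0.871 (0.192 to 3.57) and 3.75 (0.987 to 17.4). The intervals are not adjusted for the 5 pairs. In each of the first 3 pairs 1 site was called in both libraries and the other in 1 alone, a choice that tends to widen the contrast.

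Groups of sites with gaps of at most 5 kb, also set after the positions were seen, showed how far each locus is clustered. The 16 Maf sites formed 7 groups, of which 5 held more than 1 site. The 9 Bcl6 sites formed 6 groups, 3 with more than 1 site, and the 20 Prdm1 sites formed 13, 4 with more than 1. The median gap between neighbouring sites was 2990 bp at Maf, 7495 bp at Bcl6 and 8910 bp at Prdm1. Maf sites 11 to 14, within 8.3 kb, had 111 and 107 reads together and a ratio of 1.42 (1.08 to 1.87). Prdm1 sites 10 to 12 had 83 and 78 reads and a ratio of 1.39 (1.00 to 1.91), well under the 2.27 of sites 6 to 9.

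The distance between the read starts of the 2 strands was taken over the 36 sites with at least 20 reads. Its median was 132 bp with no treatment named and 126 bp with TGF-β plus IL-4. Reads were assigned to a site after their starts were moved 63 bp inwards. That choice alone sets the starts of the 2 strands about 126 bp apart, so these medians cannot test the fragment length. Single sites ranged from 56 to 194 bp. The lowest share of reads at the top mapping quality among these sites was 73.7%, at Prdm1 site 17. No reads of a library shared a position and strand. Coverage at 1 base can then reach 252 fragments at most, and the highest summit here, at Bcl6 site 9, held 83.

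**Figure D4:**
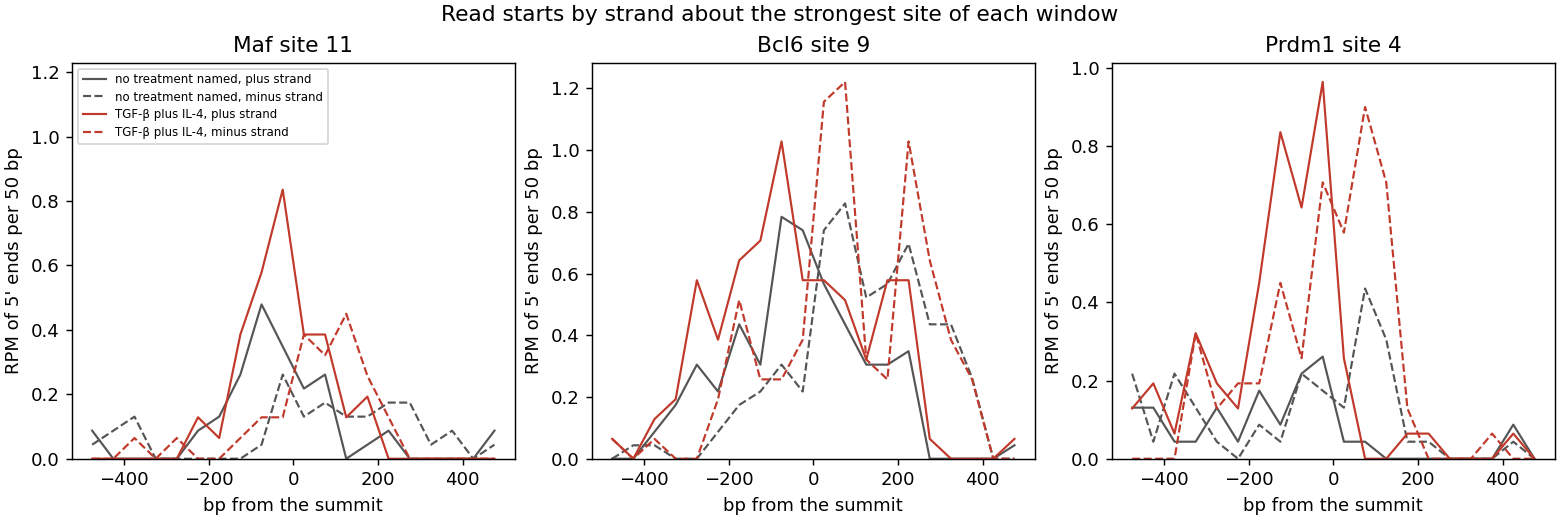
Read starts per 50 bp, as RPM, on the plus (solid) and minus (dashed) strand around the strongest site of each window, by distance from the summit in bp, with the library with no treatment named in grey and TGF-β plus IL-4 in red. Plus-strand starts lie mostly to the left. Minus-strand starts lie mostly to the right at Maf and Bcl6, but not clearly at Prdm1. Bcl6 site 9 has several maxima over its 600 bp, and at Prdm1 site 4 both strands are higher with TGF-β plus IL-4 (64 and 133 reads in all).

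Most bins of 200 bp held little signal. The median bin had 0.0871 RPM with no treatment named and 0.0643 RPM with TGF-β plus IL-4 in each window, which is 2 reads and 1 read. The top 5% of bins held 22.7% of the reads of the Maf window with no treatment named and 31.8% with TGF-β plus IL-4. At Prdm1 these shares were 27.5% and 35.6%, and at Bcl6 35.0% and 40.4%. The share was higher with TGF-β plus IL-4 in all 3 windows, as was the share of reads in sites over the genome (8.48% and 12.5%). These bins were chosen by the summed RPM of both libraries, in which a read with TGF-β plus IL-4 weighs more. That choice can itself raise the share of this library. In the Bcl6 window a run of 5.4 kb, from 23938001 to 23943400, held no read in either library, and in the Maf window one of 2.6 kb, from 118258801 to 118261400. No statement on GATA3 can be made there. The longest stretch between sites was 32.2 kb at Prdm1, after site 14, with 0.461 and 0.47 RPM per kb. At Bcl6 it was 21.2 kb, after site 7, with 0.473 and 0.52 RPM per kb. The genome's rate, with its reads in sites included, was 0.439 RPM per kb.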

How the data were processed

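Per the submitters' processing notes, CASAVA 1.0 and Bowtie2 were used with mm9; roles and settings are not given in the sources used here. Each line of the deposited files is an aligned read with its mapping quality score, from 11 to 42. No reads of a library shared position and strand, and the names of the deposited files state that duplicates were removed. Counts and RPM were made here from nuclear chromosomes; 1117 and 1161 mitochondrial reads were left out.

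Read 5′ ends were moved 63 bp inwards and counted. For calling, the deeper library was thinned to 15561681 reads. Reads were extended to 126 bp and coverage was compared every 10 bp with the higher of 2 Poisson rates, over the genome and over 10 kb (Benjamini-Hochberg q 0.01 over covered positions). Gaps up to 100 bp were merged; sites of at least 100 bp with 20% of reads on each strand were kept, and overlapping calls merged. Ratios carry exact Clopper-Pearson intervals, ratios of ratios exact conditional ones. The intervals treat reads as independent. Copies at the same position and strand are absent from the files, and any other dependence between reads was not assessed.

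Sites named: per locus the 6 with the highest mean RPM, up to 6 past the size rule, and the 2 highest and 2 lowest ratios at 20 or more reads; others are marked or counted. Loci, rules and lists were chosen with earlier results of these data known. Procedures were tested on simulated data. Python 3.11.15, numpy 2.4.6, scipy 1.17.1, pandas 2.3.3, numba 0.67.0 and matplotlib 3.10.9 were used.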

Additional observations from a re-analysis of the deposited data

How the results depend on the processing

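Scaling to the median of sites called in both libraries changed most. It turned the window ratios to 0.80 (Maf), 0.809 (Bcl6) and 0.877 (Prdm1), the ratio in Bcl6 sites to 0.891 and that of Bcl6 site 9 to 0.965, and moved the ratio in sites to 1.17 (Maf) and 1.16 (Prdm1). It left 1 higher site at Maf and 3 at Prdm1, with 11.5% of the genome's sites higher and 8.7% lower. Scaling by reads outside sites left 1 lower Prdm1 site. Sites called in both alone, a set added after the data were seen, gave 1.33 in Maf sites. A ratio of 1.5 gave 2 higher Bcl6 sites. Calling on all reads raised the lower share of the genome to 6.12%. A q of 1e-05 left 10 Maf sites, 5 of them higher, 4 Bcl6 sites with 0 higher, and 1 lower Prdm1 site. A 5 kb rate left 0 higher Bcl6 sites and 1 lower Prdm1 site. Bins of 200 bp gave 25 Maf sites, 2 lower Bcl6 sites and 1 lower Prdm1 site. Reads of the top mapping quality, another thinning, a 200 bp fragment, a 100 bp shift and background subtraction left every locus ratio within its interval and every count within 1.5 times. Of 145 ratios of 29 named sites recomputed under 5 alternatives, 143 stayed within the interval of the main value; the exceptions were Bcl6 sites 8 (0.934) and 9 under the scaling to shared sites. All 7 calling alternatives found 10 of the 16 Maf sites, 4 of the 9 Bcl6 sites and 14 of the 20 Prdm1 sites again. The labels give 1 library per condition. No paired analysis was possible because no replicate numbers exist. Sites of few reads have wide intervals at this depth.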
